A study of Glycyrrhiza uralensis with 48 samples.

Results

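The underground parts of salt-treated Glycyrrhiza uralensis seedlings were compared with those of unstressed controls. The comparison uses 6 of the 48 libraries of the study, 3 from seedlings given 75 mM NaCl and 3 from controls given distilled water, all taken at 45 days and without added silicate. All genes were considered: of 38463 rows in the deposited table, the 24478 with at least 1 FPKM in at least 3 of the 24 underground libraries were tested. FPKM is a read level scaled by transcript length and library depth. The other libraries cover aerial parts, drought at 35 to 45% of saturation moisture, salt and drought together, and each of these conditions with 2 mM silicon, in 16 groups of 3. Silicon was supplied as potassium silicate, so the silicate-fed groups also received potassium. Every seedling was raised in sterilised, nutrient-free desert sand, with 75 seeds to a pot. The labels do not say whether the libraries of a group came from separate pots. The p-values set a difference between group means against only the spread of libraries within groups, part of which may be technical. For the main comparison that spread was estimated over all 24 underground libraries, not over these 6 alone.

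Licorice is a legume whose underground organs are harvested for glycyrrhizin, a sweet triterpene saponin. The underground part is the first tissue to meet salt in the soil. Sodium there lowers the water that cells can draw and competes with potassium, and plants respond by pumping sodium out or into vacuoles, by making osmolytes, and by abscisic acid signalling, while genes of growth are often turned down. The deposited files pair no gene identifier with a name or function, so none of these pathways can be read from them. Genes are given below by identifier and position on the deposited annotation, for which the sources used here give no assembly name.

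The labelled tissue was checked with genes restricted to one part in silicate-fed, unstressed seedlings, which are outside the salt comparison. Over 76 aerial markers, the median level in underground controls 1, 2 and 3 was 0.708, 0.302 and 0.275% of the aerial level. In the salt libraries it was 0.850, 0.484 and 1.80%, with between 1 and 14 markers at 0 in any of the 6 libraries. Salt library 3 stood above the others. The 65 aerial markers tested had a median log2 change of 0.59 with salt, against 0.05 for all genes tested, and of 0.63, 0.04 and 1.20 in salt libraries 1, 2 and 3 over the control mean. Their median level in controls was 0.677 FPKM, and 3 were called higher (4.62%, limma, beside 9.64% of all genes tested). Over 73 underground markers the median was 85.4 to 98.9% of their reference level in the controls and 71.7 to 75.3% in the salt libraries, and 13 of them fell (17.8%, limma, beside 8.35% of all genes) while 3 rose. The part of aerial RNA in the results was not tested.

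The groups differed in how tightly their libraries held together. The salt libraries correlated with their own group at a mean r of 0.927 to 0.934, as a description over all tested genes, and with the other underground groups at 0.928 to 0.942, so they were no closer to one another than to other groups. The controls correlated with their own group at 0.963 to 0.968 and with the others at 0.928 to 0.938. The median SD of a gene across 3 libraries was 0.241 on the log2(FPKM + 1) scale in the salt group, 0.168 in controls, and 0.169 to 0.202 in the other underground groups. In salt library 1 the 10 most abundant genes held 23.0% of the summed FPKM, against 16.8 and 12.0% in salt libraries 2 and 3. The control group also stood apart from the rest of the underground libraries. In 640 genes, 2.62% of those tested, all 3 controls lay above or below all 21 other underground libraries, whereas for each of the other 7 groups, the silicate-fed controls included, this held in 0.127 to 0.650% of genes.

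Salt raised 2360 underground genes and lowered 2043, so 4403 of 24478 were called changed (18.0% of those tested, 9.64% higher and 8.35% lower, at a limma adjusted p under 0.05). The rises were more numerous and smaller. Of the genes that rose, 416 changed by at least 1 on the log2(FPKM + 1) scale, 40 by at least 2 and 2 by at least 3, with a median change of 0.60. Of the genes that fell, 626 changed by at least 1, 134 by at least 2 and 32 by at least 3, with a median of -0.73. Changes under 1 made up 3361 of all calls. All 3 controls lay beyond every other underground library in 13.0% of the rises and 12.8% of the falls, beside 2.62% of all genes tested. Silicate-fed controls lay wholly above these controls in 30.7% of the rises, beside 11.9% of all genes. They lay wholly below them in 21.2% of the falls, beside 4.96%. The calls were selected on these controls, and the part of the control group in them was not tested. In bulk tissue, fewer cells of a type and less RNA per cell cannot be told apart.

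**Figure D1:**
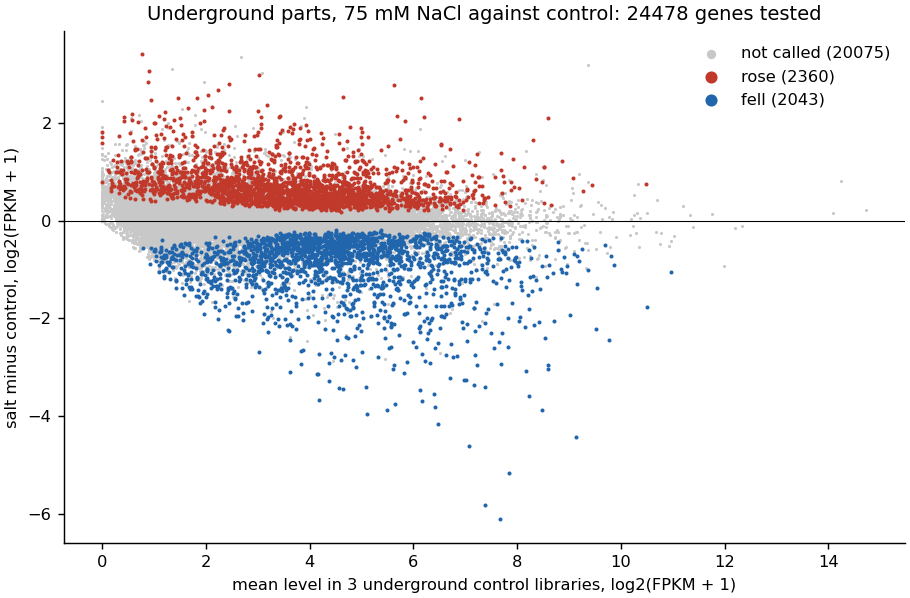
Change with salt (vertical axis, salt minus control on the log2(FPKM + 1) scale) against the mean level in 3 underground control libraries (horizontal axis, log2(FPKM + 1)), with 1 point per gene tested. The 2360 genes that rose are red, the 2043 that fell are blue, and the 32 changes of at least 3 in the downward direction outnumber the 2 in the upward direction.

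In controls, whose high values helped to select them, the genes that fell were the more abundant set, and with salt the order was the reverse. Their median level was 20.8 FPKM in controls and 11.2 with salt, while the genes that rose went from a median of 11.5 to 18.3 FPKM. The median gene tested stood at 7.51 FPKM in controls. Genes that rose held 7.70 to 8.96% of the summed FPKM of a control library and 13.2 to 14.2% of a salt library, and genes that fell held 14.3 to 16% and then 7.03 to 7.83%. Control and salt libraries did not overlap in 2250 of the rises and 1970 of the falls, while among all genes tested the salt libraries lay wholly above the controls in 17.1% and wholly below in 13.8%. Few genes switched between absence and presence. From under 1 FPKM in every control, 52 called genes reached at least 1 FPKM in every salt library, none of which reached 5 FPKM in all of them, and 77 went the other way, 3 of them from at least 5 FPKM.

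The balance between rises and falls depended on how the libraries were scaled and which were included. The median of all tested genes lay at 0.05 with salt, and after the libraries were rescaled to a common median ratio 2110 genes rose and 2469 fell. The count of calls was 2664 without control library 3. With the responses at both silicate levels averaged, a setting added after the data were seen, 7221 genes were called (29.5%), 4021 higher (16.4%) and 3200 lower (13.1%). With only the 6 libraries of the comparison in the fit, 690 genes rose (2.82%) and 922 fell (3.77%, limma), and the 6.59% called there compares with 18.0% when all 24 underground libraries shared 1 estimate of the spread. The salt group had the largest median SD of the underground groups, so the shared estimate may understate its error.

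Under a fixed rule, the genes named for each comparison are those with the smallest p in each direction among called genes that changed by at least 1, reached a mean of 5 FPKM, were not at 0 in any library compared, and overlapped no other annotated gene. Glyur000009s00001407, a single-exon gene of 231 nt on the plus strand of Scaffold00009 at 192506 to 192736, was at 98.3, 63.9 and 55.6 FPKM in controls 1, 2 and 3 and at 276, 342 and 315 FPKM with salt. The groups did not overlap, and the lowest salt library was far above the highest control (log2 change 2.12, SE 0.18, limma adjusted p = 2.88e-07). Its drought and salt-drought libraries were also above every control, at 269 to 336 and 198 to 264 FPKM. Silicate-fed controls stood at 194, 207 and 169 FPKM, so for this gene the unfed controls were the low group. Its function is not given by the files.

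Glyur000258s00015271, with 11 exons on the plus strand of Scaffold00258 at 161418 to 168165, gave values of 17.7, 18.8 and 17.7 FPKM in controls and 36.0, 44.8 and 42.3 FPKM with salt. Every salt library was well above the narrow range of the controls (log2 change 1.14, SE 0.09, limma adjusted p = 2.88e-07). Unlike the previous gene, it was low in both control groups, at 21.5 to 23.7 FPKM in silicate-fed controls, and intermediate with drought, at 23.4 to 28.1 FPKM. With salt and drought together it reached 50.1 to 55.3 FPKM.

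Glyur000051s00003460, a single exon on the minus strand of Scaffold00051 at 422812 to 423267, fell almost out of expression. Its control libraries held 18.5, 15.1 and 17.5 FPKM and its salt libraries 0.284, 0.618 and 0.364 FPKM. The groups were far apart (log2 change -3.67, SE 0.21, limma adjusted p = 7.3e-09). Drought left 2.12 to 2.90 FPKM and salt-drought 0.0789 to 0.295 FPKM, so the gene was lower in every stressed group shown in the plot of the named genes. In aerial controls it was at 0.406 to 0.441 FPKM, which makes it mainly an underground transcript in these data.

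Glyur002923s00038431, with 3 exons on the plus strand of Scaffold02923 at 9250 to 11626, went from 18.0, 20.6 and 19.3 FPKM in controls to 5.66, 4.79 and 4.71 FPKM with salt. All salt libraries were low and close together (log2 change -1.75, SE 0.11, limma adjusted p = 1.64e-08). Drought alone gave 9.24 to 9.54 FPKM, between the control and salt values. The calls of all 4 genes held in each of the 12 alternative settings run for this comparison, with limma adjusted p-values of at most 0.00607.

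**Figure D2:**
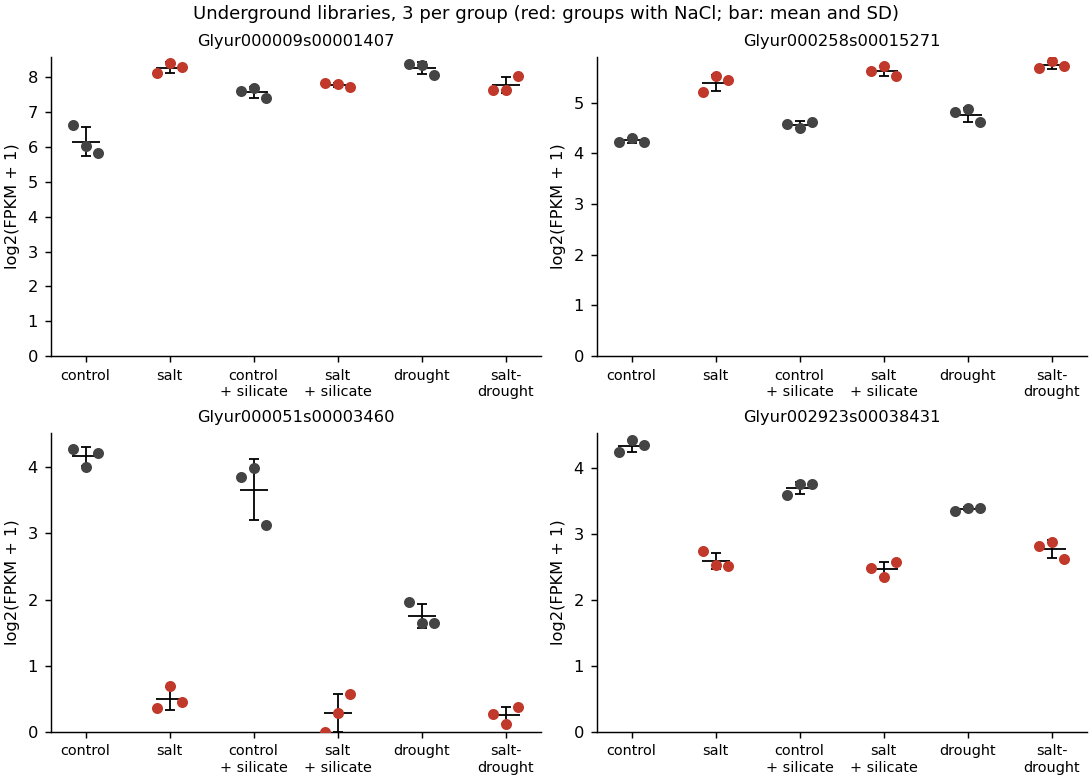
Levels of the 4 named genes (vertical axis, log2(FPKM + 1)) in 6 underground groups, with 1 point per library, the mean and SD as bars, and red for groups given NaCl. Glyur000009s00001407 is low in the unfed controls alone, while the other 3 genes separate both control groups from both salt groups.

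Whether the response recurred was examined in silicate-fed seedlings, a comparison that shares no library with the one above. Both comparisons came from the same fit and share its estimate of each gene's spread, so their calls are not independent. There, salt changed 4191 of 24478 genes (17.1%, limma), 2174 higher (8.88%) and 2017 lower (8.24%). A larger share of the falls than of the rises was called again. Among changes under 0.5 the order was the reverse, with 116 of 505 falls and 272 of 843 rises called again. Of the 2043 genes that fell without silicate, 1004 also fell with it, which is 49.1% of the first list and 49.8% of the second. Of the 2360 genes that rose, 811 also rose, which is 34.4% of the first list and 37.3% of the second, and 28 genes were called in opposite directions. The silicate-fed count was 2291 without silicate-fed control library 2, and 2583 and 2640 without silicate-fed salt library 1 or 2. Without these libraries in turn 18.9, 21.6 and 22.5% of the rises and 39.4, 38.4 and 41.7% of the falls were called again.

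The large falls recurred most. All 32 genes that fell by at least 3 were also called lower in silicate-fed seedlings (limma), with median changes of -3.46 and -3.08. Of the 102 that fell by 2 to 3, 90 were called, and of the 492 that fell by 1 to 2, 331 were called. For rises the share called again was 32.3% under 0.5, 33.9% between 0.5 and 1 and 41.2% between 1 and 2 (155 of 376). It did not climb further: 11 of 38 between 2 and 3 were called, and neither of the 2 larger ones. For the 38 genes that rose by 2 to 3 the median change was 2.16 without silicate and 0.65 with it.

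**Figure D3:**
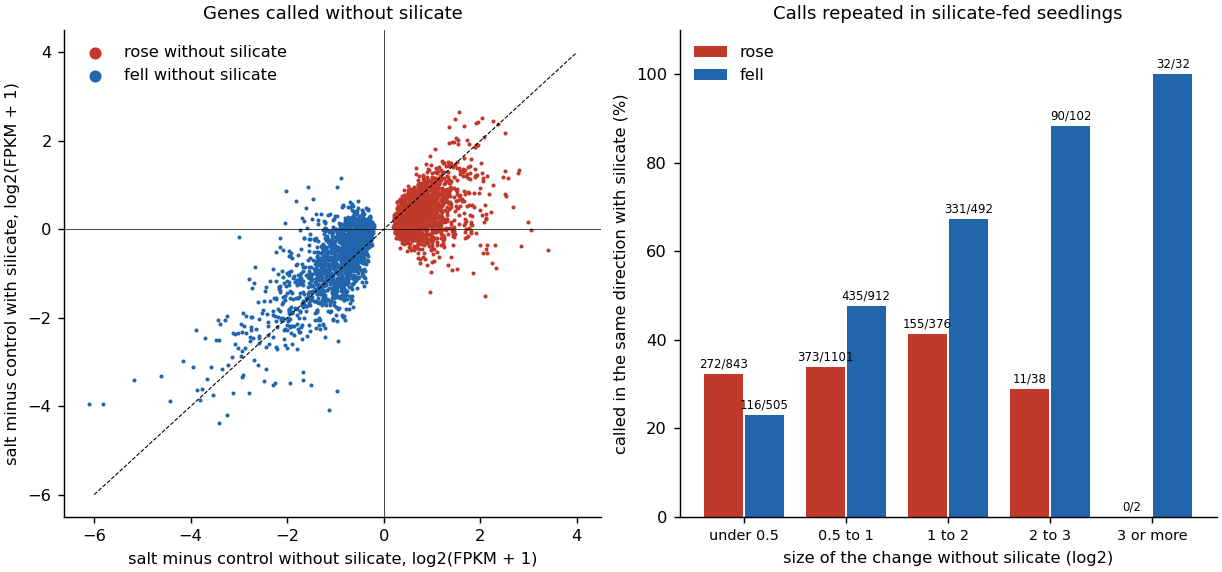
Left, the salt response without silicate (horizontal axis) and with silicate (vertical axis), both on the log2(FPKM + 1) scale, for the genes called without silicate, with the dashed line marking equal changes. Right, the share of those genes called in the same direction with silicate, by the size of the change without it: the bars for falls climb from 23.0 to 100%, while those for rises stay at or under 41.2%.

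Levels per library show where the large rises and falls differ. Over the 134 genes that fell by at least 2, the median level was 45.1, 59.6 and 60.6 FPKM in controls and 7.18, 6.89 and 6.03 FPKM with salt. With silicate the median was 39.4, 41.3 and 37.0 FPKM in controls and 5.62, 5.68 and 10.1 FPKM with salt. In both regimes the median of every control library was above that of every salt library. In 63 of these genes, beside 4.96% of all genes tested, all fed controls lay below all unfed controls, which the choice of genes had favoured as high. Over the 40 genes that rose by at least 2, the median was 3.10, 2.71 and 2.21 FPKM in controls and 15.5, 23.7 and 22.1 FPKM with salt. With silicate it was 9.17, 8.17 and 7.78 FPKM in controls and 13.1, 12.3 and 14.1 FPKM with salt. All silicate-fed controls lay above all unfed controls in 23 of these 40 genes, beside 11.9% of all genes tested, where the choice of genes had favoured low unfed controls.

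The 4 named genes gave both patterns. Glyur000051s00003460 was at 13.5, 14.9 and 7.79 FPKM in silicate-fed controls. With salt it was at 0.211 FPKM in library 2, at 0.489 FPKM in library 3 and listed at 0 in library 1 (log2 change -3.38, SE 0.21, limma adjusted p = 3.14e-08). An exact 0 may stand for an estimate that failed, or for a low level like those of libraries 2 and 3. Zeros beside high values were most frequent in fed salt library 3. There 32 genes were at 0 while the rest of the group held at least 10 FPKM, beside 4 genes in fed salt library 1. Glyur002923s00038431 went from 11.1, 12.5 and 12.5 FPKM to 4.58, 4.09 and 4.96 FPKM (-1.23, SE 0.11, limma adjusted p = 8.35e-07). Glyur000258s00015271 went from 23.0, 21.5 and 23.7 FPKM to 48.1, 51.5 and 45.1 FPKM (1.05, SE 0.09, limma adjusted p = 1.09e-06). In these 3 genes the silicate-fed groups were separate. Glyur000009s00001407 stood at 229, 223 and 212 FPKM with salt and silicate, little above its silicate-fed controls (0.22, SE 0.18, limma adjusted p = 0.415).

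The difference between the responses with and without silicate was tested directly. It was called in 130 of 24478 genes (0.531%, limma), with a higher response in silicate-fed seedlings in 52 (0.212%) and a lower one in 78 (0.319%). Glyur000324s00015435 (Scaffold00324, 75767 to 77201, minus strand) went from 3.42, 3.49 and 3.12 FPKM in controls to 15.1, 31.1 and 18.9 FPKM with salt. In silicate-fed seedlings it went from 15.8, 12.6 and 11.5 FPKM to 6.41, 6.08 and 7.71 FPKM. The signs were opposite in the 2 feeding regimes, with separate groups in both (difference -3.21, SE 0.43, limma adjusted p = 0.00418), although the fall in fed seedlings by itself had a limma adjusted p of 0.052. Its unfed controls lay below every other underground library, of which the lowest, at 5.13 FPKM, was a silicate-fed salt-drought library. Glyur000009s00001407, described above, gave the other named negative difference (-1.90, SE 0.25, limma adjusted p = 0.00418).

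A positive difference named 2 further genes. Glyur000122s00010201 (Scaffold00122, 173623 to 177371, minus strand) fell from 12.8, 14.4 and 10.6 FPKM to 5.26, 6.75 and 6.40 FPKM without silicate, and was at 6.47, 6.998 and 7.24 and at 7.08, 8.70 and 7.43 FPKM in fed controls and fed salt libraries (difference 1.07, SE 0.16, limma adjusted p = 0.00587). Only its unfed controls were high. Glyur000635s00022459 (Scaffold00635, 111724 to 131666, minus strand, 30 exons) fell from 26.2, 30.8 and 23.5 FPKM to 5.55, 7.43 and 5.66 FPKM without silicate, and from 12.6, 17.6 and 10.7 to 7.57, 7.68 and 10.2 FPKM with it (difference 1.34, SE 0.22, limma adjusted p = 0.0112). Its fed controls were again below its unfed controls. Both calls were lost with only the 4 groups in the fit, where the limma adjusted p-values were 0.0628 and 0.0884.

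Across the 130 genes, the group that stood apart was most often the unfed control. In 37 of them (28.5%) all 3 unfed controls lay beyond every other underground library, against 6 for the unfed salt group, 2 for the fed controls and 5 for the fed salt group. Over all genes tested the shares were 2.62% for the unfed controls and, in the same order, 0.380, 0.360 and 0.629% for the other groups. The 130 genes were selected on all 4 groups alike. The cause of the controls' position was not tested. The count of 130 is fragile: it was 30 with only the 4 groups compared, 54 without a filter on low values, 270 without salt library 2 and 15 without fed salt library 2, and leaving out any 1 of the 12 libraries moved it by over 1.5 times except for fed control library 3 (114 genes).

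Shares of calls by gene length differed between the feeding regimes. Among 822 tested genes with at least 4000 nt of exon, 3.16% rose and 11.6% fell with salt, beside 9.64 and 8.35% of all genes. In silicate-fed seedlings 25.3% of the same genes rose and 2.92% fell, beside 8.88 and 8.24%. The difference between the regimes was called in 16 of them as higher with silicate and in 3 as lower (limma), beside 0.212 and 0.319% of all genes. The median change of these long genes from the control mean was -0.18, 0.05 and -0.04 in salt libraries 1, 2 and 3, and 0.25, 0.22 and 0.13 in the fed salt libraries, so the 2 sets of libraries did not overlap. Each set is given against its own controls, and the fed controls of these genes lay at a median of -0.06 from the unfed ones. The low share of rises without silicate was below that of all genes in each setting run on that comparison alone. The share of falls was not steady: it was 6.08% without salt library 1, where 6.66% of all genes fell, 3.04% with only the 6 libraries, where 3.77% of all genes fell, and 6.45% without control library 3, where 5.70% did. It was 15.1% without salt library 2 and 16.9% after rescaling, beside 7.63 and 10.1% of all genes. A part of RNA quality in this pattern was not tested.

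Of 3293 genes under 500 nt, 7.99% rose and 6.01% fell without silicate, and 4.43% rose and 7.68% fell with it, all below the shares over all genes. Those shares were 9.64 and 8.35% without silicate and 8.88 and 8.24% with it, for rises and falls in turn. The genes under 500 nt had a median control level of 2.49 FPKM, against 7.51 FPKM for all genes tested. The part of level in their shares was not tested. Of 3412 tested single-exon genes, 316 rose and 460 fell without silicate, and 200 rose and 500 fell with it, so 13.5 and 14.7% fell. Of 1434 genes with 20 or more exons, 6.69% fell without silicate and 2.79% with it, while 9.69 and 18.1% rose. For rises without silicate, that 9.69% and the 9.26% of single-exon genes were near the share of all genes. The single-exon share was 7.91% with only the 6 libraries in the fit, where 3.77% of all genes fell.

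**Figure D4:**
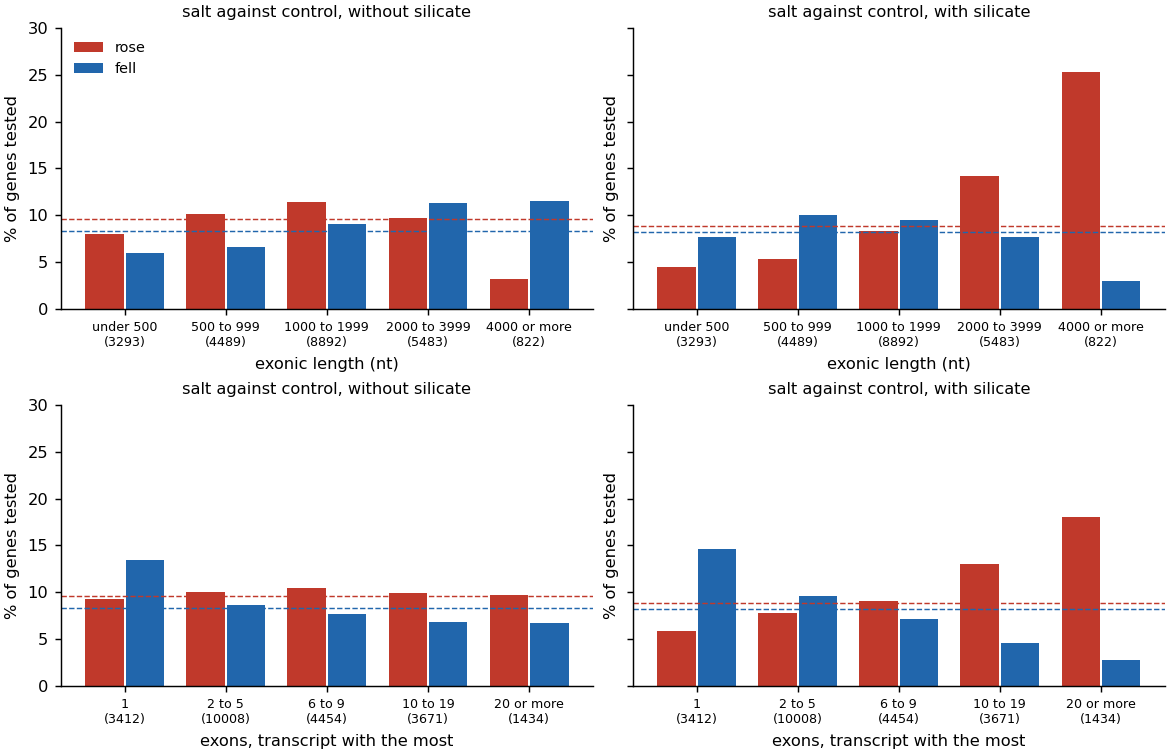
Share of tested genes that rose (red) or fell (blue) with salt (vertical axis, %) by exonic length in nt (top) and exon number (bottom), without silicate at left and with silicate at right; dashed lines give the shares over all genes and brackets the genes per class. Among genes of 4000 nt or more 3.16% rose at left and 25.3% at right, while single-exon genes fell in 13.5 and 14.7%.

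Classes by level and by plant part were set from silicate-fed, unstressed libraries, so only the comparison without silicate is given for them, with no test. Over all genes tested 9.64% rose and 8.35% fell. Of 930 genes at 100 to 1000 FPKM, 98 rose and 196 fell (10.54 and 21.1%), with median changes of -0.15, -0.20 and 0.06 in salt libraries 1, 2 and 3. Of 9790 genes at 10 to 100 FPKM 13.4% rose and 12.8% fell, and of 10911 genes at 1 to 10 FPKM 7.96% rose and 5.11% fell. The 33 genes at 1000 FPKM or more were near the average for falls, with 9.09% falling and 6.06% rising. Of the 801 genes higher underground than above ground by at least 3 log2 units, 17.9% fell and 9.74% rose. Their median change in salt libraries 1, 2 and 3 was -0.36, -0.18 and -0.08. At the other end, of 704 genes higher above ground by at least 3 units 46 rose and 5 fell, with medians of 0.51, 0.00 and 0.44 in the same libraries. Salt library 2, which gave no shift in these aerial-enriched genes, was also the salt library with the lowest aerial marker level, 0.484%. The markers were chosen from the same silicate-fed libraries as this class and fall within it, so this is not a separate observation. The part of aerial RNA was not tested. The rows labelled as new genes, which have no coordinates, supplied 71 rises and 30 falls among 1499 tested, or 4.74 and 2.00%.

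Genes called in 1 direction were neighbours in a slightly larger share than all genes, as a description with no test. Of 2176 genes that rose and had a tested neighbour not overlapping them, 13.0% had a nearest neighbour that also rose, against 10.2% for all genes. For falls the shares were 11.5 and 8.46%. Successive tested genes called in 1 direction made 33 runs of 3 and 5 runs of 4 falling genes, and 31 runs of 3, 1 of 4 and 2 of 5 rising genes. Beside this, 9.64% of all genes tested rose and 8.35% fell, and no expected number of runs was computed. Some runs hold genes that overlap another annotated gene and may share reads with it, such as all 3 on Scaffold00749 at 75845 to 77210. The runs of 5 lay on Scaffold00107 at 219555 to 277616, where the summed level went from 118, 111 and 104 FPKM to 184, 205 and 174 FPKM, and on Scaffold00123 at 242107 to 255089, where it went from 262, 262 and 254 FPKM to 332, 381 and 386 FPKM. Genes overlapping another annotated gene numbered 0 in the first of these runs and 2 in the second.

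The steepest of the 4-gene runs, chosen after its values were seen, lies on Scaffold00009 at 16610 to 30195. Its 4 genes summed to 144, 163 and 191 FPKM in controls and to 34.4, 43.4 and 42.7 FPKM with salt, with no overlap. The gene nearest the scaffold start carried most of this, at 108, 112 and 144 FPKM and then 30.9, 41.6 and 39.3 FPKM (log2 change -1.68, SE 0.31, limma adjusted p = 0.0011). Gene 4 of the run went from 19.1, 28.0 and 24.2 FPKM to 1.21, 1.03 and 1.54 FPKM (-3.44, SE 0.33, limma adjusted p = 1.2e-06). Genes 2 and 3 of the run overlap at their ends on opposite strands, so that reads from the shared stretch alone cannot be told apart without strand information, and gene 2 is listed at 0 in salt library 2. All 4 genes also fell in silicate-fed seedlings, where the mean sum went from 206 to 19.3 FPKM.

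**Figure D5:**
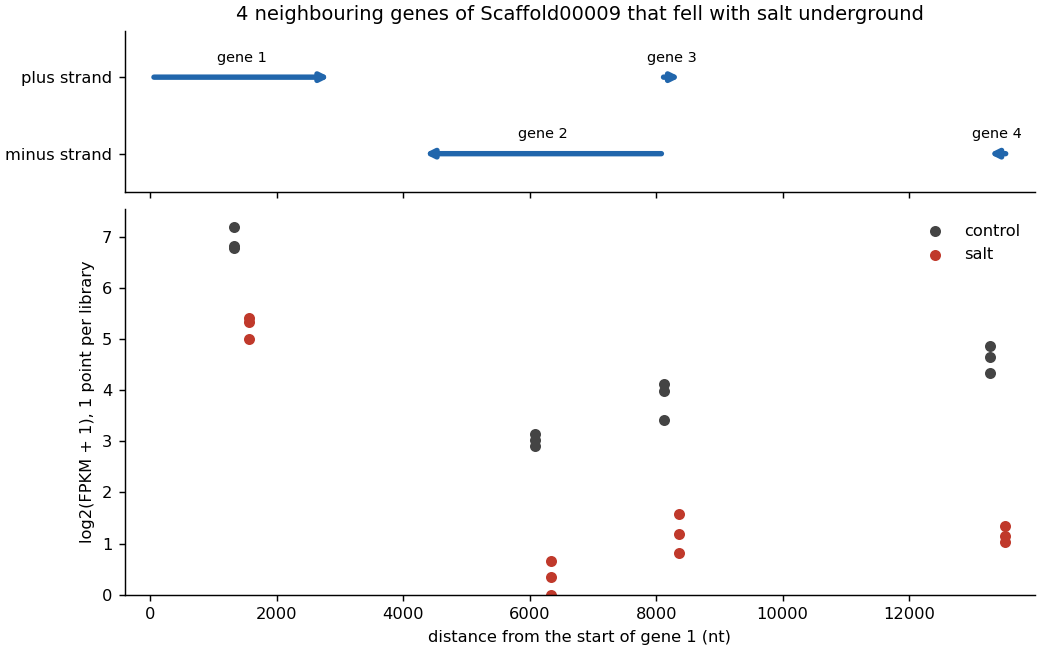
The 4 neighbouring genes of Scaffold00009 drawn to scale by strand (top; horizontal axis, distance in nt from the start of gene 1) and their levels (bottom; log2(FPKM + 1), 1 point per library, controls grey and salt red). In each gene every salt library lies below every control, and gene 1 is the most abundant in both groups.

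The salt response underground was set against that of aerial parts by testing the difference itself. It was called in 1060 of 26335 genes (4.03%, limma), with the underground response higher in 626 (2.38%) and lower in 434 (1.65%). After rescaling the split was 558 higher and 628 lower. The count was 525 without underground control library 3, 655 without aerial control library 2, 579 without aerial salt library 1, and 156 with only the 4 groups in the fit. Same-numbered controls of both parts deviated together over genes (r 0.300, 0.329 and 0.243 for numbers 1, 2 and 3, as a description), and same-numbered salt libraries less so (0.136, 0.0258 and 0.0637). With the replicate number as a block the difference was called in 1018 genes. That block gave each number 1 shift shared by all 16 groups, so it did not model pairs of parts within a condition. The calls ignore such pairing.

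Glyur000107s00007216 (Scaffold00107, 30904 to 32715, plus strand) rose underground from 30.8, 28.9 and 32.6 FPKM to 115, 99.5 and 96.0 FPKM. In aerial parts it was at 131, 115 and 241 FPKM in controls and at 33.2, 80.9 and 36.6 FPKM with salt. Salt libraries were above controls underground and below them above ground (difference 3.43, SE 0.41, limma adjusted p = 3.8e-06). Glyur000097s00008316 (Scaffold00097, 199559 to 200991, minus strand) likewise rose from 35.3, 30.7 and 29.0 to 75.9, 68.1 and 81.8 FPKM underground, while aerial parts went from 106, 126 and 123 to 81.4, 87.2 and 87.9 FPKM (difference 1.69, SE 0.19, limma adjusted p = 7.54e-07). Both genes were more abundant above ground in controls. With salt, the underground libraries of Glyur000107s00007216 lay above all its aerial ones, and those of Glyur000097s00008316 overlapped them. In silicate-fed seedlings neither underground rise was called (-0.16, limma adjusted p = 0.696, and -0.12, limma adjusted p = 0.625, in the same order). Unfed controls were the lowest underground group for both, and the difference with silicate was -1.88 (limma adjusted p = 0.0261) and -1.34 (limma adjusted p = 0.0105).

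Glyur001208s00036579 (Scaffold01208, 49299 to 50645, minus strand, 1 exon) fell underground from 81.1, 105 and 108 FPKM to 25.3, 24.8 and 24.7 FPKM. Aerial values were 48.1, 67.3 and 67.3 FPKM in controls and 84.2, 76.5 and 83.7 FPKM with salt (difference -2.35, SE 0.24, limma adjusted p = 1.14e-07). Glyur000215s00017034 (Scaffold00215, 220469 to 223176, plus strand) fell underground from 166, 159.9 and 177 FPKM to 39.2, 42.2 and 52.4 FPKM, and was at 41.1, 30.7 and 42.5 and at 44.7, 61.6 and 61.0 FPKM in aerial controls and salt libraries (difference -2.43, SE 0.31, limma adjusted p = 7.37e-06). The aerial changes of these 2 genes were not called (limma adjusted p = 0.123 and 0.158). Aerial salt by itself changed 1628 of 23389 genes (6.96%, limma), 700 higher (2.99%) and 928 lower (3.97%). Of the 134 genes that fell by at least 2 underground, 125 were tested above ground and 81 of these were called lower there (64.8%), beside 4.14% of the genes tested in both parts. Of the 40 that rose by at least 2, 9 were called higher above ground and 3 lower (22.5 and 7.5%). The 134 genes had median levels of 22.3, 27.6 and 30.9 FPKM in aerial controls and 9.93, 7.12 and 7.03 FPKM in aerial salt libraries.

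Salt was also compared directly with drought underground, which avoids the controls that the 2 stresses share. In all, 1244 of 24478 genes differed (5.08%, limma), 548 higher in salt (2.24%) and 696 lower (2.84%). The count was 449 and 427 without drought library 1 or 3, 632 without salt library 1, and 70 with only the 2 groups in the fit.

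Glyur001249s00034774 (Scaffold01249, 52964 to 57104, plus strand) stood at 13.6, 11.1 and 14.6 FPKM in drought and at 1.51, 3.06 and 2.28 FPKM in salt, with controls at 17.3 to 23.7 FPKM (salt minus drought -2.12, SE 0.23, limma adjusted p = 0.000314). Its drought libraries also lay below the controls, but that change was not called (-0.59, SE 0.23, limma adjusted p = 0.2135). Glyur000440s00021862 (Scaffold00440, 69651 to 70322, minus strand, 1 exon) stood at 101, 165 and 112 FPKM in drought and 14.4, 24.7 and 24.1 FPKM in salt, with controls between them at 34.2 to 63.6 FPKM (-2.53, SE 0.27, limma adjusted p = 0.000314). The silicate-fed controls, at 90.5, 99.8 and 122.5 FPKM, lay above the unfed ones and overlapped the fed drought libraries, at 72.1, 152.8 and 98.7 FPKM (-0.0076, limma adjusted p = 0.9994). The fall with salt against the unfed controls (-1.16, SE 0.27, limma adjusted p = 0.00589) was not called with only the 6 libraries in the fit (limma adjusted p = 0.0634).

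Of the 2 genes named as higher in salt, Glyur000038s00004509 (Scaffold00038, 459774 to 461321, plus strand) was at 2.34, 2.51 and 2.97 FPKM in drought and 11.6, 7.504 and 8.68 FPKM in salt (1.49, SE 0.25, limma adjusted p = 0.00333). Glyur001404s00041101 (Scaffold01404, 60176 to 62726, minus strand) was at 66.6, 94.1 and 68.1 FPKM in drought and 196, 151 and 151 FPKM in salt (1.12, SE 0.19, limma adjusted p = 0.00377). Drought and salt libraries were separate in both genes, and the second call was lost with only the 2 groups in the fit (limma adjusted p = 0.0831). Controls of the first gene, at 3.36 to 4.06 FPKM, lay just above its drought libraries.

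Silicate-fed drought and salt-drought share no library with the comparison of salt and control, but came from the same fit. Fed drought changed 251 genes (1.03%, limma), 21 higher (0.0858%) and 230 lower (0.94%). Of its 230 falls, 209 were among the salt falls, which is 90.9% of the fed drought list and 10.2% of the salt list, and 11 of its 21 rises were among the salt rises. Fed salt-drought changed 3364 genes (13.7%, limma), 1273 higher (5.2%) and 2091 lower (8.54%). It shared 1057 falls with salt, 50.5% of its own and 51.7% of the salt list, and 650 rises, 51.1% of its own and 27.5% of the salt list. As in the fed salt comparison, the share of the salt list that recurred was larger for falls than for rises. All fed comparisons use the same silicate-fed controls, so this is not a separate observation.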

How the data were processed

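The authors deposited a gene annotation and a table of FPKM values for every gene in every library; the submitters' processing notes name TopHat2 and Cufflinks. Versions, strand handling and the genome build are not given in the sources used here, nor which of the nanopore and Illumina libraries that the labels' protocols describe gave the values. Groups follow the sample titles, and 0 columns of other samples were left out. FPKM are not counts. Their low steps did not come out clearly as whole reads. At the best-fitting step of each library, 42.2 to 61.9% of low values lay within 0.1 of a whole number. Chance gives 20% at a fixed step, which is no reference for a best-fitting step. Depth is therefore unknown, and the spread between libraries is the measure of precision.

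Values were analysed as log2(FPKM + 1) with limma 3.58.1 in R 4.3.3 (group means, trend and robust moderation), which understates changes of low genes. The 24 underground libraries, or all 48 for the difference between parts, entered 1 fit. Genes with at least 1 FPKM in 3 libraries of the fit were tested, and calls had a Benjamini-Hochberg adjusted p under 0.05. Genes were named by smallest p, at most 2 per direction, under the limits given with the first of them, with no rule on overlap of groups for differences of responses. The members, lists and rules were chosen with earlier results of these data known. A strict marker rule (at least 100 FPKM in one part, at most 1 in the other) found 4 aerial genes and 1 underground gene, so a broader list (at least 20 FPKM, at most 1% in the other part) was added after the data were seen. Lists of named pathway genes were not used, as the files give no names. In the annotation, 9485 of 34445 genes overlap another, and 4018 further rows have no coordinates. Alternatives were a pseudocount of 0.1, no filter, rescaled libraries, a replicate block, only the groups compared, and each library left out.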

Additional observations from a re-analysis of the deposited data

Results flagged for a closer look

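These results stand here because a test of the difference between responses called them. The salt response differed between silicate-fed and unfed underground parts in 130 genes (limma), and between underground and aerial parts in 1060 genes. With silicate the response was higher by 1.07 on the log2(FPKM + 1) scale in Glyur000122s00010201 and by 1.34 in Glyur000635s00022459. The difference was -1.90 in Glyur000009s00001407 and -3.21 in Glyur000324s00015435. Underground minus aerial, it was 1.69 in Glyur000097s00008316, 3.43 in Glyur000107s00007216, -2.35 in Glyur001208s00036579 and -2.43 in Glyur000215s00017034. Groups of 3 libraries are too small for the check on single outlying values, so no library was singled out that way.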

How the results depend on the processing

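The number of underground genes called with salt was 4403, and it was 4444 with a pseudocount of 0.1, 4040 without the filter, 4579 after rescaling, 1612 with only the groups compared and, in a setting added after the data were seen, 7221 (4021 higher, 3200 lower) for the mean of the responses with and without silicate. Other counts moved by over 1.5 times in these cases: the silicate difference went from 130 to 54 without the filter and to 30 with only the groups compared, the difference between parts from 1060 to 156, and salt against drought from 1244 to 70, both with only the groups compared. Leaving out 1 library gave 2664 to 4155 calls for salt, 2291 to 3630 for fed salt, 15 to 270 for the silicate difference, 525 to 1231 for the difference between parts and 427 to 1300 for salt against drought. Without control library 3 fewer calls were made in the first of these, and without salt library 1 or 3 its split was 2526 to 1629 and 1589 to 1908. The causes were not tested. Replicate numbers did not pair the underground samples: same-numbered control and salt libraries deviated with r of 0.0755, -0.179 and -0.0301. Across parts, same-numbered controls did deviate together, as given above, but not every pair of salt libraries. With the replicate block the counts were 4168, 3926, 101, 1018 and 1108 in the order above, all within 1.5 times. The block does not model pairs of parts within a condition. No direction of a named gene reversed under any alternative, and 3 named calls were lost, each with only the groups compared. The share of salt falls that recurred in fed seedlings ranged from 38.4 to 61.7% over the settings run, each fed library left out included, and that of rises from 18.9 to 40.1%; no share was computed for the mean of both silicate levels. Depth is unknown, so values near 0 carry an error that cannot be given.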
